A study of Homo sapiens with 6 samples.

Results

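Regions of the genome under 10 kb wide that held an RBM8A peak in every replicate were described here. They were found by joining the peaks of 3 deposited lists on chromosomes 1 to 22 wherever at least 1 bp overlapped, and by keeping joined regions under 10 kb that held a peak of each list. This gave 337 recurring regions out of 3171 joined regions under 10 kb on these chromosomes, or 10.6%, and 36.7% of the 919 that held peaks of at least 2 lists. The whole series held 3584 joined regions, of any width and on any sequence. Of the other regions under 10 kb, 582 held peaks of exactly 2 lists and 2252 of 1 list. The lists come from 3 anti-RBM8A immunoprecipitates of AGS, a human gastric adenocarcinoma cell line labelled wild type and left untreated in normal growth. Another 3 samples of the series are input RNA of the same line and were not analysed here. All 6 samples carry the same batch label, and whether the replicates came from separate cultures is not stated in them, so the spread between lists may be technical. A pull-down with a control antibody is not among them, so RNA that stuck to beads or antibody without RBM8A cannot be told apart from bound RNA.

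RBM8A, also known as Y14, pairs with MAGOH and, together with EIF4A3, forms the core of the exon junction complex. The spliceosome leaves this complex on RNA a short way upstream of each spliced exon boundary, and it travels with the messenger RNA until translation removes it. It takes part in RNA export, localisation and nonsense-mediated decay. RNA immunoprecipitation without crosslinking recovers whole RNAs or large pieces of them, so that a peak marks covered stretches of a transcript rather than a footprint. Positions are those of hg19, with the first base of a chromosome as 1, and no peak has a strand.

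No annotation of hg19 was used. A gene named beside a region was placed there from general knowledge of that build and not from a file, so it is background. The number of regions given for a named gene rests on this placement, while the counts over all recurring regions do not. Of 42 symbols looked up, 42 stood on the same chromosome in RefSeq's GRCh38 table, and the regions given to a symbol never spanned more than its gene's length there. The 27 pairs of neighbouring symbols on 1 chromosome also stood in the same order. This check does not tell a named gene from one that overlaps or adjoins it, nor from an antisense transcript. The lists also do not say how reads that fit several copies of a gene were treated, which touches ribosomal protein genes, whose processed copies are many. The regions were chosen by the peak positions in all 3 lists, the values described here, so the values that follow are descriptions without a test.

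The deepest recurring region lay at FTH1. For each list the best peak of a region by −log10 p was taken, and its pileup is the number of fragments stacked at its summit, which was worked back from the deposited fold and −log10 p. On chromosome 11 from 61732481 to 61733271, at FTH1, the ferritin heavy chain that stores iron, the pileup was 188, 253 and 238 fragments in replicates 1, 2 and 3. Exact 95% Poisson intervals, which cover counting error only, ran from 162.1 to 216.9, 222.8 to 286.2 and 208.7 to 270.2. Those of replicates 1 and 2 do not overlap, and that of replicate 3 overlaps both. The level that the authors' caller expected there was itself 93.9, 100.2 and 102.6 fragments, so the fold enrichment was 1.99, 2.51 and 2.31. FTH1 thus paired the deepest summits of all recurring regions with folds well below their medians of 4.22, 4.20 and 4.07.

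Of the 10 regions with the highest mean percentile rank of −log10 q within the lists, FTH1 ranked 1 with a mean percentile of 99.3. The region of chromosome 17 from 27047776 to 27049354, at RPL23A, a protein of the large ribosomal subunit, had pileups of 85, 78 and 68 and folds of 12.4, 5.08 and 2.60. Its pileups lay between 68 and 85, while the expected level was 5.92, 14.6 and 25.5 in replicates 1, 2 and 3. On chromosome 12 from 104324288 to 104325367, at HSP90B1, a chaperone of the endoplasmic reticulum, pileups were 74, 81 and 87 and folds 2.42, 4.05 and 4.93. PTMA, which encodes the small acidic protein prothymosin alpha, corresponds to chromosome 2 from 232573601 to 232575062, with pileups of 69, 95 and 69. At HMGA1, a chromatin architectural protein, the region of chromosome 6 from 34208566 to 34211320 had pileups of 55, 72 and 61 and folds of 2.58, 6.05 and 3.47. RPL23A, HSP90B1, PTMA and HMGA1 thus had pileups of 55 to 95 fragments in all 3 lists, all below those of FTH1.

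Other regions of this leading group rested on far fewer fragments. At SPTBN1, a spectrin of the membrane skeleton, the region of chromosome 2 from 54856677 to 54859901 had pileups of 10, 12 and 14. Its expected level was 0.42, 0.58 and 0.37, so that the folds were 7.74, 8.21 and 10.9. HP1BP3, a heterochromatin protein, had pileups of 19, 19 and 18 with folds of 6.42, 9.24 and 9.40 on chromosome 1 from 21071408 to 21076298. ITPRID2, a gene also called SSFA2, had pileups of 29, 50 and 36 on chromosome 2 from 182756834 to 182758118. The elongation factor gene EEF2 held 8 peaks of the 3 lists in 1 region of chromosome 19 from 3976532 to 3982035, the most of any recurring region, with best pileups of 24, 56 and 35. ACTN4, an actinin that crosslinks actin, had pileups of 18, 28 and 26 on chromosome 19 from 39205183 to 39214460. The leading group therefore holds deep summits of low fold, as at FTH1, and shallow summits of high fold, as at SPTBN1. RPL23A and ITPRID2 fell in neither kind. Their folds in replicates 1, 2 and 3 were 12.4, 5.08 and 2.60 at RPL23A and 4.94, 6.88 and 3.63 at ITPRID2.

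Over all 337 recurring regions the median summit pileup was 10, 12 and 11 fragments in replicates 1, 2 and 3, a mean of 11 ± 1.00 (SD, n = 3). The other peaks under 10 kb on the same chromosomes had medians of 5, 6 and 5. The median fold differed less, at 4.22, 4.20 and 4.07 in recurring regions and 4.11, 4.02 and 3.96 in the other peaks. As a ratio, the expected level at the summit differed more than the pileup. Its medians were 1.27, 1.75 and 1.53 fragments in recurring regions against 0.42, 0.47 and 0.44 elsewhere. Its lowest value in a list, 0.422, 0.400 and 0.374, is called the floor here, and 16.2% ± 6.13 of best peaks (SD, n = 3) lay within 0.5% of it, against 50.8% ± 7.66 of the other peaks. In 228 recurring regions (67.7%) the expected level was above the floor in all lists, and in 13 it was at the floor in all lists. Recurring regions thus lay where the caller's background was higher too. Part of the gap in pileup follows from the choice itself, because a shallow peak passes the caller's limit less easily in 3 lists than in 1.

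**Figure D1:**
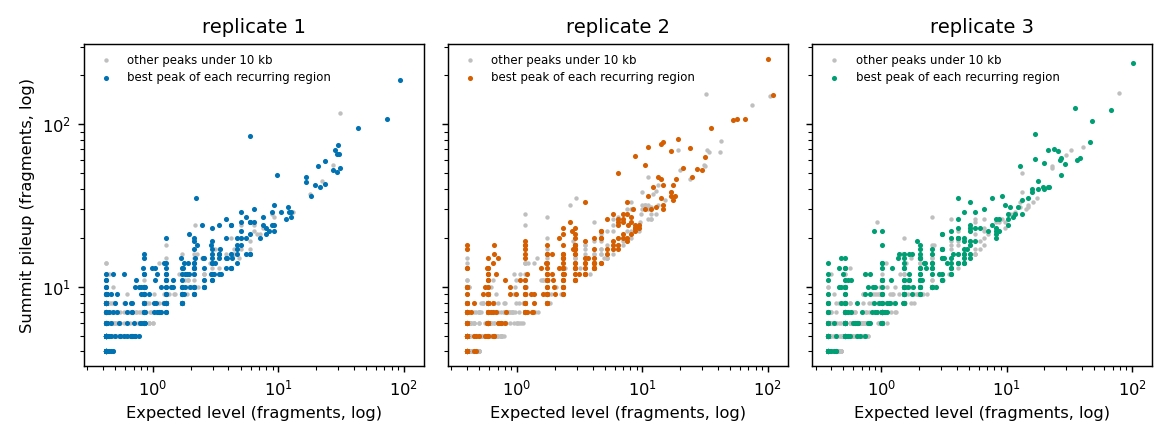
Summit pileup (vertical, fragments, log scale) against the expected level at the summit (horizontal, fragments, log scale), 1 panel per replicate, for the best peak of each recurring region (coloured) and the other peaks under 10 kb of chromosomes 1 to 22 (grey). The coloured points extend along the diagonal to the deepest summits, with FTH1 at 188, 253 and 238 fragments in replicates 1, 2 and 3. Many grey points gather at the floor on the left, but others reach up to 117, 153 and 156 fragments.

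The ratio of the highest to the lowest of the 3 pileups of a region had a median of 1.60, was at most 1.5 in 148 regions and above 3 in 13. Each pileup was read at the list's own best summit. All summits lay within 100 bp in only 57 of 337 regions and spread over more than 1000 bp in 137. Many of these ratios thus compare different positions. A pileup of at least 10 in every list was reached by 129 regions (38.3%), against 13.7% of all joined regions under 10 kb over the lists that hold them. A −log10 q of at least 5 in every list was reached by 29 (8.61%), against 6.78%, and a fold of at least 5 by 17 (5.04%), against 13.2%. Nothing is read from these shares, since the choice of regions used the same peaks and a region of 1 list has to pass only once.

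The second question was how closely the replicates place their summits. The distance between the summits of the best peaks had a median of 330, 373 and 281 bp for replicates 1 and 2, 1 and 3, and 2 and 3. Summits within 100 bp made up 30.6%, 32.0% and 35.9% of the pairs, or 32.8% ± 2.75 (SD over 3 pairs of lists, which share lists). In regions of exactly 2 lists, 26.3% of 582 pairs lay within 100 bp, and by pair of lists the shares were 25.9%, 18.7% and 30.9%. For each pair of lists the share was higher in recurring regions, although their range over pairs, 30.6% to 35.9%, overlaps that in regions of exactly 2 lists. The widths also differed, with a median of 2929 bp in recurring regions against 1885 bp, and the part of width was not tested. Within 10 bp lay 8.61%, 11.3% and 10.4% of pairs in recurring regions and 3.90%, 2.24% and 9.05% in regions of exactly 2 lists. Beyond 1000 bp lay 90, 92 and 92 of the 337 regions.

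**Figure D2:**
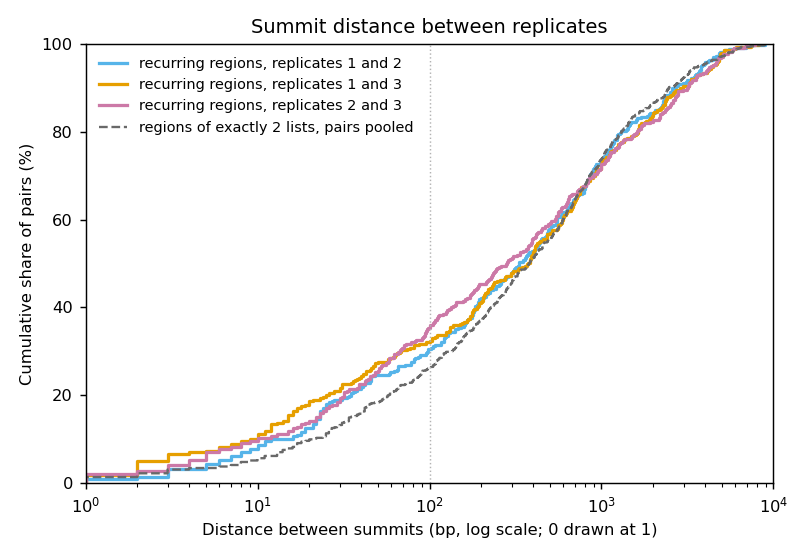
Cumulative share of regions (vertical, percent) by distance between the summits of 2 replicates (horizontal, bp, log scale), 1 solid line per pair of replicates over 337 recurring regions and a dashed line for the 582 pairs in regions of exactly 2 lists. At 100 bp, the dotted line, the solid curves stand at 30.6%, 32.0% and 35.9% and the dashed one at 26.3%, and all meet near 1000 bp.

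With all 3 lists together, the spread between the outermost summits ran from 3 to 8943 bp with a median of 735 bp. It was at most 100 bp in 57 regions (16.9%), at most 1000 bp in 200 and over 1000 bp in 137. The regions fell into uneven classes. In 57 all 3 pairs of summits lay within 100 bp, in 10 only 2 pairs did, in 141 only 1 pair, and in 129 none. Of the 141 regions with 1 close pair, the pair was replicates 1 and 2 in 41, 1 and 3 in 45, and 2 and 3 in 55, so no replicate was the odd one throughout. EEF2 is an example, with summits of replicates 2 and 3 at 3981425 and 3981419, 6 bp apart, and that of replicate 1 at 3977674. At ACTN4 the summits of replicates 2 and 3 were 66 bp apart and that of replicate 1 lay 3520 and 3586 bp from them.

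The 10 regions with the tightest summits spread over 3 to 10 bp. ITPRID2 had its summits at 182756957, 182756959 and 182756956 in replicates 1, 2 and 3, a spread of 3 bp. RBM39, a splicing factor related to U2AF2, had summits at 34293238, 34293235 and 34293236 on chromosome 20, with pileups of 12, 17 and 13. RPL19, another protein of the large ribosomal subunit, had summits at 37359308, 37359306 and 37359305 on chromosome 17, with pileups of 59, 68 and 57. In these 3 genes the replicates named nearly the same base although their pileups ran from 12 to 68 fragments. DUS1L, a tRNA dihydrouridine synthase, had a spread of 5 bp on chromosome 17 from 80017839 to 80018613, and its folds of 5.73, 12.9 and 7.60 were among the highest of the group. NPIPB5, a member of a duplicated gene family of chromosome 16, and TTYH3, a membrane channel protein of chromosome 7, also had a spread of 5 bp. Because copies of the NPIP family are near identical, the copy behind the region from 22545013 to 22547666 is uncertain. MAP2K2, a kinase upstream of ERK, reached a spread of 6 bp on chromosome 19 from 4101137 to 4102467 with pileups of only 9, 9 and 7. HSPE1, the mitochondrial co-chaperonin, reached 7 bp with pileups of 8, 7 and 10.

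S100A10, which encodes a small partner of annexin A2, held 2 of the 10 tightest regions, both on chromosome 1. That from 151955956 to 151956568 had summits at 151955974, 151955968 and 151955971, with pileups of 66, 47 and 70. The other, from 151958675 to 151966267, was 7593 bp wide, yet its summits spread over 10 bp, its starts over 28 bp and its ends over 83 bp. Of its width, 7482 bp were covered in all 3 lists. Its expected levels of 29.2, 23.9 and 46.5 fragments kept the folds at 2.22, 2.89 and 1.66. The gap between both S100A10 regions was 2106 bp.

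Summits agreed more closely where they were deep. Regions were ordered by the lowest of their 3 pileups. Where it was 4 or 5, the median spread was 999 bp and 6 of 99 regions (6.06%) had a spread of at most 100 bp. At 6 to 9 fragments the median was 1002 bp and the count 14 of 109 (12.8%), and at 10 to 19 fragments it was 553 bp and 18 of 85 (21.2%). At 20 or more it was 151 bp and 19 of 44 (43.2%). Width moved with this, since the median width of the deepest class was 1762 bp against 2929 bp in the shallowest, and its part in the pattern was not tested. Among regions under 2 kb, 33 of 113 (29.2%) had a spread of at most 100 bp, falling to 16 of 103 (15.5%) from 2 to under 4 kb and 8 of 121 (6.61%) from 4 kb up. A spread cannot exceed the width of its region, so wider classes leave more room for distant summits by construction. MAP2K2 and HSPE1 show that shallow summits could also coincide.

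**Figure D3:**
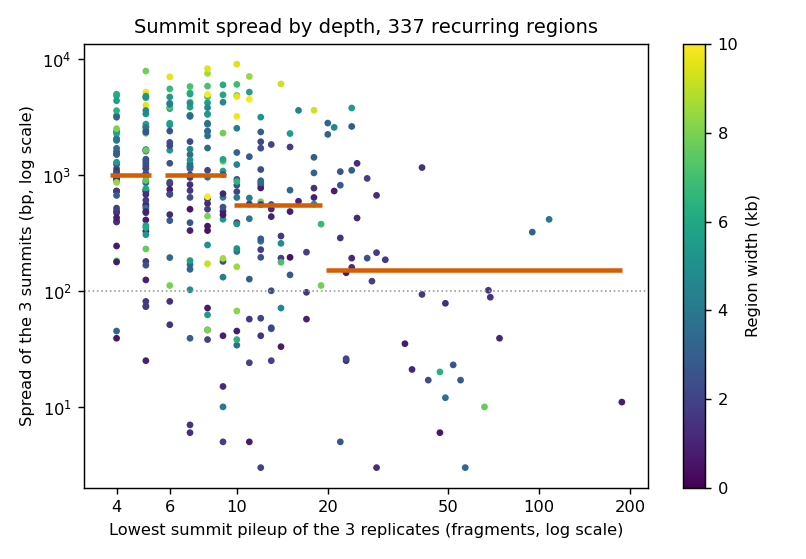
Spread of the 3 summits (vertical, bp, log scale) against the lowest of the 3 summit pileups (horizontal, fragments, log scale), 1 point per recurring region coloured by its width in kb, with the median of each pileup class as an orange bar and 100 bp as a dotted line. The bars stand at 999, 1002, 553 and 151 bp from the shallowest to the deepest class, and narrow regions (dark) lie lower than wide ones (yellow). The spread of a region cannot exceed its width.

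The edges of peaks lay closer together than their summits by the median. The starts of the best peaks differed by a median of 137, 112 and 139 bp between pairs of replicates and the ends by 128, 103 and 156 bp. Over all 3 lists, starts spread over at most 100 bp in 89 regions and ends in 102, compared with 57 for summits. In 48 regions both edges held within 100 bp, and in 15 of these the summits did too. In the remaining 33 at least 1 summit lay over 100 bp from another. On chromosome 6 from 34730626 to 34735516, an example chosen after its values were seen, starts spread over 36 bp, ends over 23 bp and summits over 2399 bp. In the same way, the region of chromosome 9 from 36199264 to 36203897 had starts within 20 bp, ends within 18 bp and the summits of replicates 1 and 2 only 9 bp apart, while that of replicate 3 lay 1656 and 1647 bp from them.

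Summits were not placed evenly within peaks. Of the best peaks of recurring regions, 46.5% ± 4.45 (SD, n = 3) had their summit in the first 10% of the peak's length, on the side of the lower coordinates, and 7.12% ± 1.65 in the last 10%. The other peaks under 10 kb showed the same imbalance at a lower level, with 33.2% ± 0.896 in the first and 7.75% ± 1.18 in the last 10%. Within 50 bp of the start lay 26.8% ± 3.82 of the summits of best peaks, and within 50 bp of the end 3.56% ± 0.890. For the other peaks these shares were 21.7% ± 0.814 and 4.44% ± 1.11. Best peaks were also wider, with medians of 1820, 2387 and 1961 bp against 1549, 1239 and 1496.5 bp. The part of width in these shares was not tested. In 52 regions the summit was in the first 10% in all lists, and 25 of these had a spread of at most 100 bp, with a median of 111 bp. In the 68 regions with no summit in the first 10%, 15 had such a spread, and the median was 570 bp. In the other 217, with the summit there in 1 or 2 lists, 17 had such a spread and the median was 1035 bp. The first class takes regions whose summits already share a place in the peak, so its smaller spread follows in part from how it was formed.

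**Figure D4:**
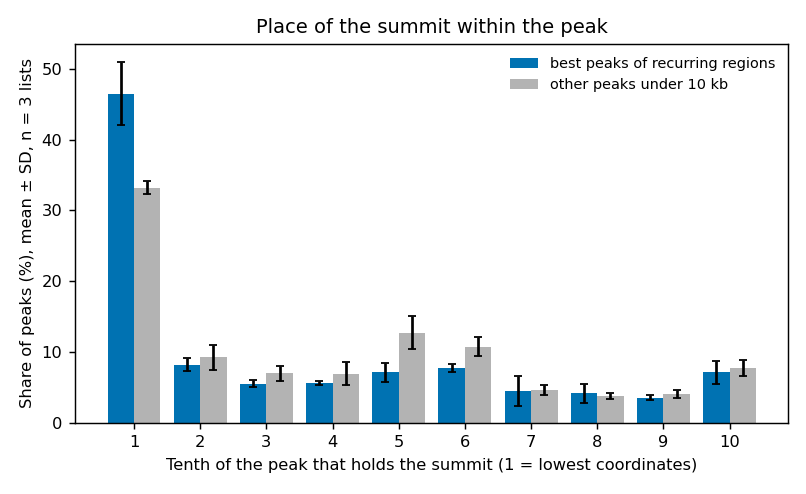
Share of peaks (vertical, percent, mean ± SD over 3 lists) whose summit lies in each of 10 equal parts of the peak (horizontal, 1 at the lowest coordinates), for best peaks of recurring regions (blue) and other peaks under 10 kb (grey). The first of these holds 46.5% and 33.2%, and the last 7.12% and 7.75%.

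The third question was how recurring regions are spaced. They were 498 to 9969 bp wide, with a median of 2929 bp, and covered 1.21 Mb. In 278 of them each list had exactly 1 peak. A base covered in all 3 lists was found in 325, and 226 had at least 50% of their width covered in all lists. The other 12, among them the first SPTBN1 region and 1 at P4HB, were held together only by peaks that overlap in turn. Recurring regions took up 25.2%, 16.6% and 20.5% of all peaks of replicates 1, 2 and 3. Chromosome 1 held 50 and chromosome 19 held 48, and per Mb chromosome 19 was the densest with 0.812, ahead of chromosome 20 with 0.254 and chromosome 17 with 0.222. As a share of the joined regions under 10 kb of a chromosome, recurrence was 17.2% on chromosome 6, 14.2% on chromosome 19 and 5.30% on chromosome 16, against 10.6% over all. Chromosome 18 had 0 of 22, which allows a share of up to 13.6%, above the share over all chromosomes.

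The 316 gaps between neighbouring recurring regions had a median of 1605006 bp, yet 13 were under 1 kb, 35 were from 1 to under 10 kb, and 30 from 10 to under 100 kb. Another recurring region lay within 100 kb of 134 of the 337 (39.8%). The share with another of the same kind within 100 kb was 45.4% for the 582 regions of exactly 2 lists and 69.2% for the 2252 regions of 1 list, both higher than among the recurring regions, which are fewer. Linking regions at gaps of at most 100 kb left 203 alone, 39 pairs, and 17 chains of 3 to 5 regions. Within 10 kb of a wider joined region of all lists, at least 10 kb in width, lay 19 recurring regions. Regions of 1 chain share a transcript or its neighbours, so they are not independent observations.

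The longest chain by number held 5 regions on chromosome 9 from 131348151 to 131447460. Its first 4, separated by 13013, 8098 and 5209 bp, lay at SPTAN1, the alpha spectrin that pairs with the SPTBN1 product. Their pileups were 8, 8 and 9 in the first region, 5, 8 and 11 in the second, 12, 10 and 9 in the third, and 5, 9 and 12 in the fourth. The first of them had a summit spread of 62 bp and the others 326, 2280 and 851 bp. The last region of the chain, 54331 bp further on, lay at SET, an inhibitor of protein phosphatase 2A, with pileups of 6, 16 and 9.

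At SPTBN1, 4 regions of chromosome 2 ran from 54839423 to 54895602 with gaps of 4320, 338 and 33216 bp. Their summit spreads were 4785, 3320, 1551 and 179 bp. Pileups in the first were 4, 5 and 11, and no base of it was covered in all lists. In the second, replicates 1 and 3 placed their summits 9 bp apart and replicate 2 lay over 3 kb away, at pileups of 11, 8 and 15. The last had pileups of 10, 18 and 9. The wide gap before it held no recurring region. Any peaks there did not recur in all lists or joined into a region over the 10 kb limit.

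SRRM1, a splicing coactivator known to associate with exon junction complexes, lay under 4 regions of chromosome 1 from 24975486 to 24997846. Gaps of 2591, 6380 and 411 bp separated them, and 58.0% of the stretch lay in recurring regions. Pileups were 9, 12 and 13 in the first, 12, 18 and 13 in the second, 17, 14 and 24 in the third, and 18, 14 and 10 in the fourth. The summit spreads were 483, 226, 6044 and 386 bp in the same order. HNRNPUL1, a nuclear RNA-binding protein, had 4 regions on chromosome 19 from 41774190 to 41811464, with summit spreads of 4939, 81, 3576 and 765 bp. Pileups of the last were 20, 18 and 62, over an expected level of 7.20, 6.37 and 38.3, with a fold of 1.60 in replicate 3. The summit of replicate 3 lay 765 and 486 bp from those of replicates 1 and 2, so these values belong to different positions.

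**Figure D5:**
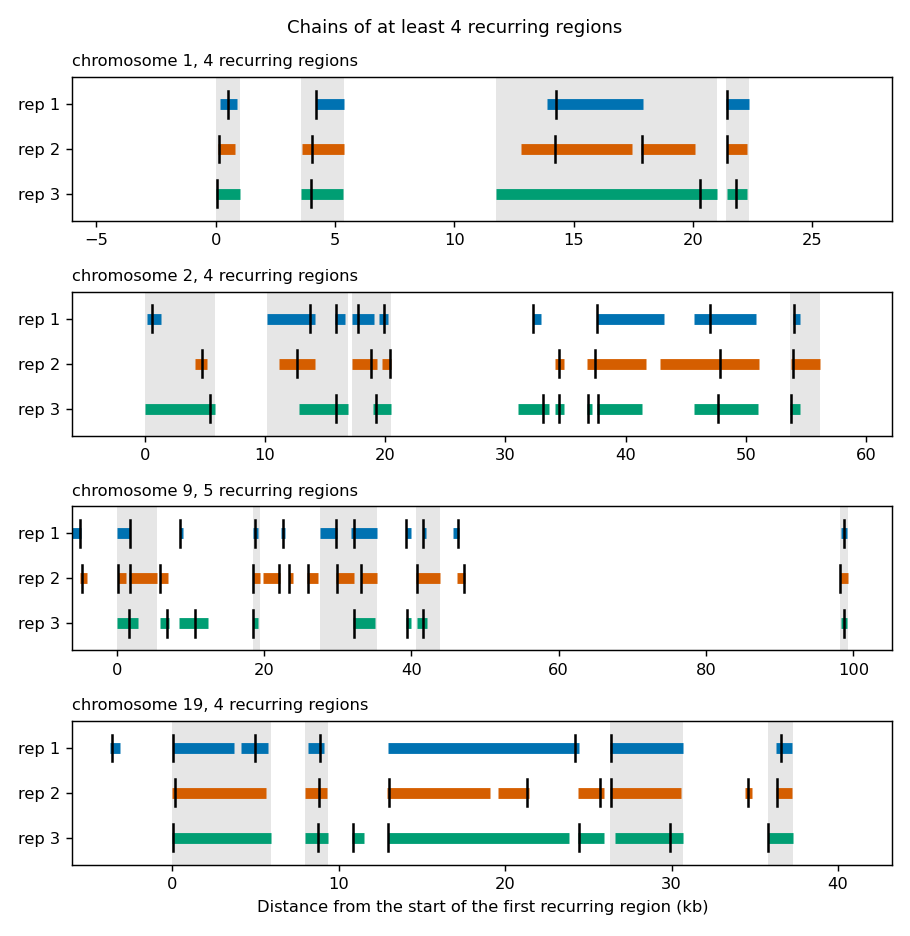
Peaks of each replicate (coloured bars, 1 row per replicate) with their summits (black ticks) along the 4 chains of at least 4 recurring regions, drawn by distance in kb from the start of the first region, with recurring regions shaded grey. From top to bottom the chains lie at SRRM1, SPTBN1, SPTAN1 with SET, and HNRNPUL1. Unshaded bars are peaks of regions that did not recur in all lists or were over the 10 kb limit.

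The 13 chains of 3 regions were added after their values were seen. Of all 17 chains, 7 spanned under 25 kb, among them SRRM1. At HSP90B1 on chromosome 12, gaps of 3939 and 1557 bp lay between regions with pileups of 74, 81 and 87, of 47, 53 and 55, and of 108, 108 and 125. In the last of these the expected level was 73.6, 65.2 and 35.2, so that the fold was 1.46, 1.65 and 3.48. ACIN1, a protein of the exon junction complex periphery, corresponds to chromosome 14 from 23528320 to 23540366, where the summit spreads were 58, 417 and 73 bp. PKM, the pyruvate kinase of glycolysis, had 77.3% of its 12255 bp stretch on chromosome 15 in recurring regions. P4HB, a protein disulfide isomerase, had 75.4% of 16268 bp on chromosome 17. AP3D1, a subunit of a vesicle adaptor, and TPM4, a tropomyosin, each held 3 regions on chromosome 19. RRBP1, a ribosome-binding protein of the endoplasmic reticulum, held 3 on chromosome 20.

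The remaining chains lay at MYH9 and at pairs of genes. MYH9, the heavy chain of nonmuscle myosin, held 3 regions of chromosome 22 from 36680193 to 36710221, with pileups of 15, 20 and 20, of 8, 21 and 21, and of 10, 9 and 7. Their summit spreads were 137, 5783 and 102 bp, so the pileups of the second region were read at different positions. The epithelial keratin partners KRT8 and KRT18 made up 1 chain on chromosome 12. Pileups were 24, 36 and 26 and 24, 25 and 24 in both KRT8 regions and 32, 36 and 28 in that of KRT18. The summit spreads were 1090 and 2601 bp at KRT8 and 121 bp at KRT18. The pileups of a KRT8 region were therefore not all read at the same position. PFN1, an actin monomer binder, formed a chain with the kinesin gene KIF1C on chromosome 17, at pileups of 42, 47 and 41 for PFN1 and 6 to 8 fragments for KIF1C. TPM3, another tropomyosin, stood with UBAP2L on chromosome 1, the actin regulator INF2 with the kinase AKT1 on chromosome 14, and the troponin TNNT1 with PPP6R1 on chromosome 19. Such genes were met by position, and no enrichment of any gene class was tested.

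At the width limit, the widest recurring regions were 9969 bp on chromosome 19 from 45477922 to 45487890, at CLPTM1, and 9960 bp on chromosome 21 from 27372351 to 27382310, at APP, the amyloid precursor protein. Pileups were 8, 9 and 11 at CLPTM1 and 8, 23 and 15 at APP. The summit spread was 646 bp at CLPTM1. At APP the summit of replicate 1 lay 4846 and 4899 bp from those of replicates 2 and 3. Just outside the limit were regions of all lists of 10001 bp on chromosome 1 from 43148506 and 10085 bp on chromosome 9 from 88651318. The limit therefore cuts through a continuous range of widths.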

How the data were processed

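Peaks of 3 anti-RBM8A immunoprecipitates of AGS cells were analysed. The submitters' processing notes name FastQC, HISAT2, SAMtools, GATK and MACS2, whose versions and settings the sources used here do not give. Each deposited list was called on 1 replicate and gives a fold enrichment (a ratio of pileup to expected level), the −log10 of a p-value and of a q-value per peak. Its score column, per the deposited values, is 10 times the −log10 q with decimals dropped. The fold is used only to describe peaks of a list. Which sample served as background is likewise not given. The build in the notes is hg38, but sequence names match hg19, and 0 peaks lay past an hg19 chromosome end. Sequences were not used here, since the reference tables are GRCh38.

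Peaks were joined at 1 bp of overlap. To recover summit depth, each whole pileup up to 400 was tried, and that nearest the deposited −log10 p, within 0.0005, was kept, given the fold with 1 added to pileup and expected level and a Poisson p-value, as MACS2 computes them. This succeeded for 1476 of 1480 peaks in replicate 1, 2150 of 2155 in replicate 2, 1800 of 1802 in replicate 3, and for all best peaks of recurring regions. In 239, 0 and 4 peaks a second pileup also matched, and the nearer was kept. The lists hold no read totals, so depth is unknown.

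Members and gene names were chosen with earlier results of these data known. Named regions were the 10 with the tightest summits, the 10 with the highest mean percentile of −log10 q, chains of at least 4, and the 2 widest with the 2 just outside the limit. The gene lists set for the exon junction complex, splicing, cytoskeleton, cell cycle and epithelial markers were not counted without annotation. Joining and summit spreads were right for 200 of 200 simulated regions, and pileups for 400 of 400 simulated peaks. The simulated regions never held several peaks of a list, so the choice of a best peak was not checked. Deep summits of low fold, such as those at FTH1, were not simulated either. Scripts ran in Python 3.11.15 with scipy 1.17.1 for Poisson tails, pandas 2.3.3 and numpy 2.4.6 for tables, matplotlib 3.10.9 for plots and pyranges 0.1.4 for hg19 chromosome lengths. Alternatives were a stricter q or fold, a larger overlap, other width and distance limits, another choice of best peak, and leaving out each replicate.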

Additional observations from a re-analysis of the deposited data

Results flagged for a closer look

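Outside chromosomes 1 to 22, which the choice of regions left out, 4 joined regions under 10 kb held a peak of all 3 lists. Of these, 2 lay on chromosome X, 1 on chrUn_gl000220 and 1 on chrUn_gl000224. Chromosome X held 65 joined regions under 10 kb in any list, so 2 of 65 recurred there, a lower share than the 10.6% over chromosomes 1 to 22. The 4 regions were singled out because they recur in data that the report did not use.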

How the results depend on the processing

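Recurring regions numbered 29 under a q limit (−log10 of 5 or more) and 18 with a fold of at least 5 in every peak used. These filters keep fewer peaks by construction, and all 29 former regions overlapped recurring regions of the report. Of the other 4 counts, from 247 under 5 kb to 381 under 20 kb, each was within 1.5 times the count in the report. Without replicate 1, 2 or 3, regions of both remaining lists numbered 493 to 592, since fewer lists had to share them, with 592 without replicate 1 and 560 without replicate 3. The share of summit pairs within 100 bp was 59.8% under the q limit, 36.0% with exactly 1 peak in every list and 44.7% with a pileup of at least 10 in every list, an alternative chosen after seeing the data. It was 25.9% within 50 bp and 42.9% within 200 bp by definition, and 29.0% to 33.6% without 1 replicate. The mean of the median distances, 328.0 bp, became 53.7, 263.3 and 153.3 bp with those 3 filters and 288.0 to 393.0 bp without 1 replicate. The share with a neighbour within 100 kb was 48.1% within 250 kb, 6.90% under the q limit, and 47.9% to 53.2% without 1 replicate, where more regions are kept. The median pileup was then 8.50 to 9.0 fragments. The choice of the peak by fold or by closest summits moved no value beyond its spread. Annotation alternatives were not run. No paired analysis was possible because the inputs have no peak list here. Median pileups were 10 to 12 fragments, and the part of this depth in the distance between summits was not tested.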

Other observations

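In 19 recurring regions the caller expected at least 10 fragments at the summit in every list. Beside FTH1, HSP90B1, PTMA, HMGA1, RPL19, S100A10 and PFN1, they included 1 on chromosome 19 from 49999717 to 50002741 with pileups of 95, 108 and 123, and 1 on chromosome 17 from 37006687 to 37009353 with pileups of 52, 63 and 60 and a summit spread of 23 bp. Another lay on chromosome 8 from 101719208 to 101721528 with pileups of 43, 54 and 58 and a spread of 17 bp.

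At the other end, 13 recurring regions had the expected level at the floor in all lists, with pileups of 4 to 8 fragments. On chromosome 2 from 29150673 to 29152312 the pileup was 4 in each list, the lowest listed, and the summits spread over 945 bp. On chromosome 1 from 144163741 to 144164601 pileups of 5, 6 and 5 had summits within 25 bp.

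The region with the largest relative difference in pileup, on chromosome 2 from 232325219, had 22 fragments in replicate 1 against 106 and 105 in replicates 2 and 3. The summit of replicate 1 lay 810 and 811 bp from those of replicates 2 and 3, so these pileups were read at different positions. On chromosome 19 from 55898195 to 55899662 replicate 2 had 151 against 51 and 41 in replicates 1 and 3. There too the positions differed, with the summit of replicate 2 lying 1151 and 1141 bp from those of replicates 1 and 3. These regions were chosen after their values were seen.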
